A study of Canis lupus familiaris with 24 samples.

Results

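The genes described here make cholesterol and fatty acids, control that synthesis, or move cholesterol out of the lysosome and the cell. The list holds 34 gene symbols, and every probe set whose only annotated gene symbol is one of them was taken. That gave 61 of the 22283 probe sets on the array, for 30 of the 34 symbols. Of the 61 probe sets, 57 were tested because 6 or more of the 24 arrays had a Present call, and these still covered 30 genes. Probe sets of a gene are called the brightest, the second and the third here, in the order of their mean signal among those tested. FDFT1, CYP51A1, FADS1 and ACSL3 had no probe set of their own. CYP51A1 was annotated on 2 probe sets and FADS1 on 3 that also name other genes, and these were not used. The 4 untested probe sets were 1 of ACACA, 1 of FASN and 2 of SCD.

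Each array held RNA of 1 piece of lung from 1 of 3 anesthetised mongrel dogs. The left lung was the injured one: it was washed with warm saline, 20 ml/kg on 4 occasions, which removes surfactant and gives a mild injury. The right lung was the control and was held open with a positive end-expiratory pressure (PEEP) of 5 cmH2O, and both lungs were ventilated for 5 h at 25 breaths/min. Lavage, side of the chest and PEEP differed together, so their parts in a difference between the lungs cannot be told apart. Pieces came from 4 sites of each lung, the apex and the base, each in a dependent part (low under gravity) and a nondependent part, which makes 8 groups of 3 arrays, 1 per dog. Dog RNA was hybridised to the human genome U133 array, part A, so the signal of a probe set also depends on how well human probes match the dog transcript, and levels of different genes were not compared.

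Cells make cholesterol from acetyl-CoA through mevalonate and squalene, and they make fatty acids from the same acetyl-CoA. The transcription factors SREBP1 and SREBP2, encoded by SREBF1 and SREBF2, switch on the enzymes of both pathways. SCAP carries the SREBP proteins from the endoplasmic reticulum to the Golgi for activation, and INSIG1 and INSIG2 hold SCAP back when sterols are plentiful. INSIG1 is itself a target gene of SREBP. In the lung, alveolar type 2 cells use these pathways to make the phospholipids and cholesterol of surfactant.

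Arrays had between 60.78 and 82.32% of probe sets called Present. The log2 difference between the 3' and 5' signals of GAPDH was 3.08 and 3.01 on the injured base arrays of dog 1. It was 1.33 and 2.09 on the injured apex arrays of that dog, and at most 2.43 on any array other than those of its injured base. In the injured lung of dog 3, 3 arrays stood apart, namely both apex arrays and the dependent one of the base, with highest signals of at least 22155 against at most 20465 on any other array. Against the dog's other 5 arrays, the median difference on these 3 arrays was 0.051 (log2) over the 30 genes and 0.121 over all 20034 tested probe sets. The other 5 include all control arrays of the dog, so this difference also holds that between the lungs. Without these 3 arrays, 4 of the 30 genes had the opposite sign over the mean of 4 sites, 7 moved by over 0.2 (log2) and the largest move was 0.376. At the base dependent site 7 of 30 had the opposite sign and the largest move was 0.96. For the brightest probe sets, moves of over 0.2 in the mean of 4 sites are given beside the values they touch, with many of the larger ones in other contrasts.

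No lipid synthesis probe set passed the test between the injured and the control lung. The pieces are bulk tissue, so fewer cells of a type and less RNA per cell cannot be told apart in any of the values. Over the mean of the 4 sites, limma called 0 of 57 member probe sets at an adjusted p under 0.05, beside 42 of all 20034 tested (0.21%). Without adjustment, 7 of 57 (12.3%) had a p under 0.05, beside 9.7% of all tested probe sets. Of the 57, 30 were higher and 27 lower in the injured lung, with a median log2 difference of 0.01 against 0.03 over all probe sets. The sign was the same in 3 dogs for 19 of 57 (33.3%) and for 29.7% of all probe sets. Counted by the brightest tested probe set of each gene, 14 genes were higher and 16 lower, and without the 3 arrays of dog 3 that stood apart 16 were higher and 14 lower. For 29 of these 30 genes the 95% interval of the log2 difference lay between -1 and 1, that is, within a doubling or a halving, and for 14 of 30 it lay between -0.5 and 0.5. The gene whose interval reached further on its brightest probe set was INSIG2. Counted over all tested probe sets, the interval lay between -1 and 1 for 50 of 57 and between -0.5 and 0.5 for 19 of 57. Dimmer probe sets of INSIG1, SCD and NPC1 were among those that reached beyond -1 or 1.

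**Figure D1:**
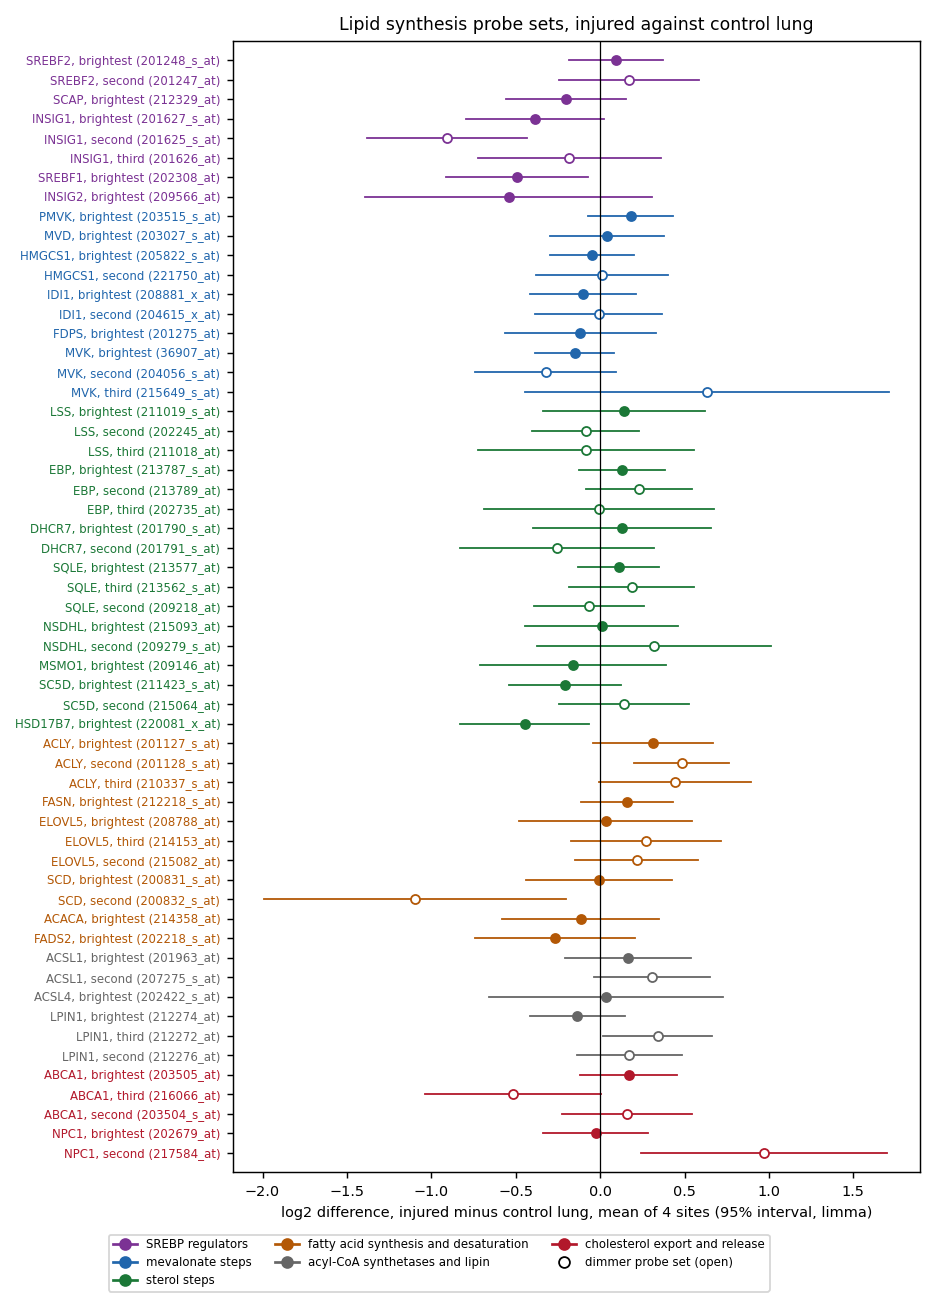
Log2 difference between the injured and the control lung, mean of 4 sites, for the 57 tested probe sets, coloured by the role of the gene. Points are limma estimates and lines their 95% intervals, not adjusted for the number of tests, from 12 arrays per lung and 3 dogs. Filled points are the brightest probe set of a gene. The points lie on both sides of 0, and the second probe set of INSIG1 has the smallest adjusted p, 0.122.

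Of the 8 tested probe sets of SREBP and its regulators, 6 were lower and 2 higher in the injured lung, with a median of -0.29, and 0 of 8 passed the test. The 3 probe sets of INSIG1, the 1 of INSIG2, the 1 of SREBF1 and the 1 of SCAP were the lower ones. Both probe sets of SREBF2 were on the higher side, the brightest at 0.09 ± 0.13 (log2, SE) and the second at 0.17 ± 0.20. At the apex dependent site the brightest stood at 0.56 ± 0.27 (limma adjusted p = 0.719), with 1.20, 0.10 and 0.38 in dogs 1, 2 and 3.

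INSIG1 had the smallest p of the 57 probe sets, on its second probe set. On that one the difference lay in the base of the lung. On its second probe set, the log2 signal at the base dependent site was 6.34, 6.52 and 6.09 in the control lung of dogs 1, 2 and 3 and 4.40, 4.81 and 4.36 in the injured lung. In the nondependent part of the base it was 6.49, 6.58 and 7.16 in the control lung and 4.34, 4.97 and 5.57 in the injured lung. All 6 injured arrays of the base therefore lay below all 6 control arrays of the base. At the apex dependent site the values were 6.18, 6.42 and 5.53 in the control lung and 6.79, 5.90 and 6.34 in the injured lung, and at the apex nondependent site 5.21, 5.56 and 7.21 against 5.08, 6.44 and 5.39. The apex groups thus overlapped at both sites. The fitted difference was -1.79 ± 0.46 (log2, SE) at the base dependent site (limma adjusted p = 0.505) and -1.78 ± 0.46 at the base nondependent site (adjusted p = 0.104). Over the 4 sites it was -0.91 ± 0.23 (adjusted p = 0.122), with -0.90, -0.74 and -1.08 in the 3 dogs. Leaving out the 3 arrays of dog 3 that stood apart gave -0.74 over the 4 sites (adjusted p = 0.413), -1.56 at the base dependent site (adjusted p = 0.679) and the same fitted value at the base nondependent site (adjusted p = 0.0964).

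This second probe set was called Present on 4 of 12 injured arrays and 9 of 12 control arrays. The brightest probe set of INSIG1 was called Present on all 24 arrays. In the nondependent part of the base it read 7.33, 7.38 and 8.27 in the control lung of dogs 1, 2 and 3 and 6.64, 6.17 and 7.08 in the injured lung, so the groups did not overlap there. At the base dependent site it read 7.50, 6.89 and 7.59 against 6.04, 6.89 and 6.97, where the value of dog 2 was the same in both lungs to 2 decimals. The difference was -1.03 ± 0.39 at the base nondependent site (adjusted p = 0.396) and -0.39 ± 0.20 over the 4 sites (adjusted p = 0.551), with -0.57, -0.07 and -0.52 in the 3 dogs. Without the 3 arrays of dog 3 that stood apart, the value over the 4 sites was -0.25 (adjusted p = 0.826). The third probe set, called Present on 10 of 24 arrays, stood at -0.18 ± 0.26 over the 4 sites and had 0.58 in dog 1, opposite to the other dogs. It was at 0.03 without the same 3 arrays. The probe sets of INSIG1 therefore did not share a size, nor a sign at the base dependent site. On the third the sign over the 4 sites depended on those arrays.

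SREBF1, the gene of SREBP1, was measured by 1 probe set. At the apex dependent site its log2 signal was 8.70, 8.74 and 8.21 in the control lung of dogs 1, 2 and 3 and 7.16, 7.48 and 7.77 in the injured lung. At the apex nondependent site it was 8.23, 8.68 and 6.87 against 7.45, 7.42 and 7.66. The apex dependent groups did not overlap, and at the apex nondependent site the control array of dog 3 lay below all 3 injured ones. At the base dependent site the values were 7.34, 8.34 and 6.87 in the control lung and 7.04, 7.49 and 8.16 in the injured lung, and at the base nondependent site 8.50, 7.82 and 7.40 against 7.74, 7.74 and 6.66. Dogs 1 and 2 had the injured lung lower at all 4 sites, while dog 3 had it higher at 2 of them. The difference over the 4 sites was -0.49 ± 0.20 (limma adjusted p = 0.41), with -0.84, -0.86 and 0.23 in the 3 dogs, and at the apex dependent site it was -1.08 ± 0.40 (adjusted p = 0.644), with -1.54, -1.26 and -0.44. Without the 3 arrays of dog 3 that stood apart, the value over the 4 sites was -0.87 with an adjusted p of 0.0301, and that at the apex dependent site -1.56 (adjusted p = 0.372). The base nondependent array is then the only injured one of dog 3. The detection calls ran against the signal: SREBF1 was called Present on 9 of 12 injured arrays and on 4 of 12 control arrays.

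**Figure D2:**
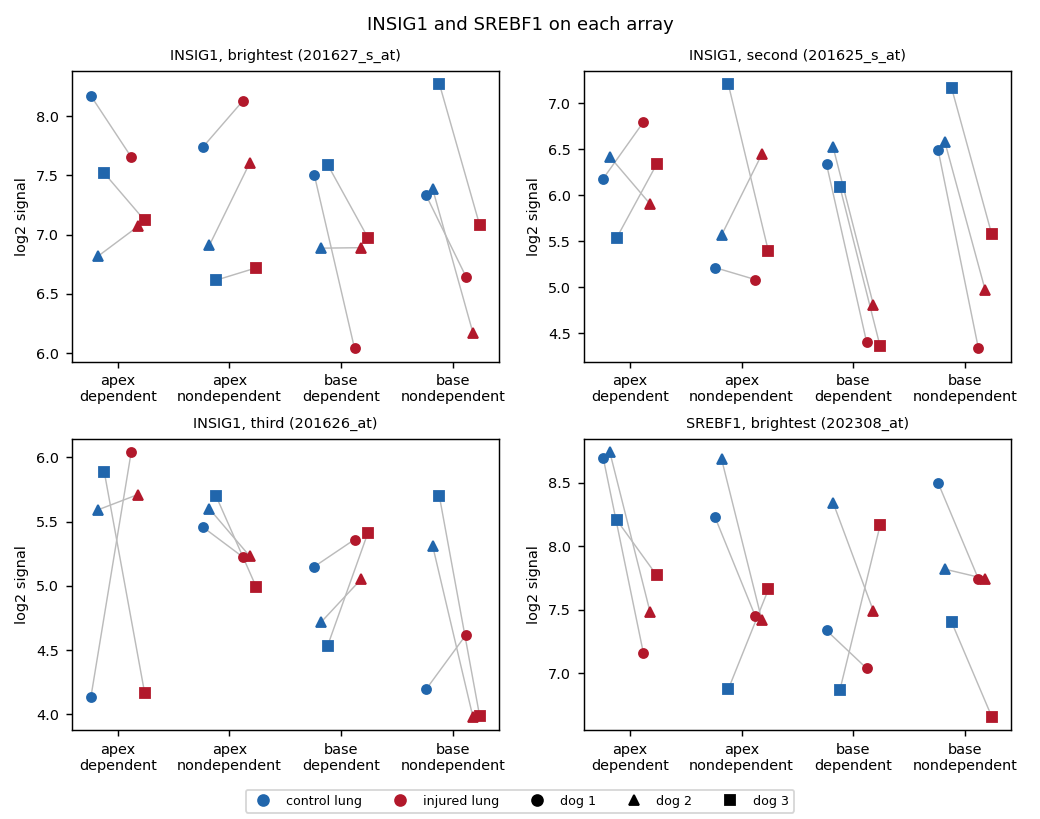
Log2 signal on each of the 24 arrays for the 3 probe sets of INSIG1 and for SREBF1, by site, with the control lung in blue and the injured lung in red. Marker shapes give the dog and grey lines join the lungs of a dog. On the second probe set of INSIG1 all injured arrays of the base lie below all control arrays of the base, while SREBF1 runs opposite ways in dog 3 and the other dogs at the base dependent site.

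INSIG2 and SCAP gave no even picture. INSIG2, called Present on 13 of 24 arrays, was at -0.54 ± 0.41 over the 4 sites (adjusted p = 0.734), and its 95% interval ran from -1.39 to 0.31. Its value at the apex nondependent site was -2.27 ± 0.82 (adjusted p = 0.791), made of -3.79, 0.33 and -3.36 in dogs 1, 2 and 3, so dog 2 had the opposite sign. Without the 3 arrays of dog 3 that stood apart the value over the 4 sites was -0.33 (adjusted p = 0.91). SCAP stood at -0.20 ± 0.17, with -0.67 in dog 3 and -0.06 and 0.12 in the others, and at 0.02 without those 3 arrays.

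The mevalonate enzymes, which turn acetyl-CoA into the isoprene units of sterols, lay close to 0. Of their 10 probe sets, 4 were higher and 6 lower, none had an unadjusted p under 0.05, and the median was -0.03. HMGCS1, which makes the HMG-CoA that enters the pathway, averaged 8.84 ± 0.18 (log2 signal, SD over 3 dogs) in the control lung and 8.79 ± 0.08 in the injured lung. Its second probe set was at 0.01 ± 0.19 (log2 difference, SE). MVK, mevalonate kinase, was at -0.15 ± 0.11 on its brightest probe set, with -0.12, -0.21 and -0.12 in the 3 dogs, while 2 dimmer ones stood at -0.32 and 0.63. The decarboxylase MVD was at 0.04 ± 0.16, the isomerase IDI1 at -0.10 ± 0.15 (-0.01 ± 0.18 on the second probe set) and FDPS, which makes farnesyl diphosphate, at -0.12 ± 0.21. IDI1 was at -0.24, FDPS at -0.23 and HMGCS1 at 0.06, in place of -0.05, without the 3 arrays of dog 3 that stood apart.

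PMVK, phosphomevalonate kinase, stood higher in the injured lung at the base and lower at the nondependent apex. Its log2 signal at the base dependent site was 7.61, 6.99 and 7.09 in the control lung of dogs 1, 2 and 3 and 8.15, 7.52 and 7.42 in the injured lung. In the nondependent part of the base it was 7.75, 6.67 and 6.47 against 7.94, 7.60 and 7.06. The injured lung was higher in each dog at both base sites, although the groups overlapped, with dog 1 high in both lungs. At the apex nondependent site the order was reversed in each dog, with 7.98, 6.97 and 7.08 in the control lung and 7.80, 6.42 and 6.44 in the injured lung, and at the apex dependent site the values were 7.72, 7.01 and 7.36 against 7.69, 7.53 and 7.30. The differences were 0.47 ± 0.24 at the base dependent, 0.57 ± 0.24 at the base nondependent (limma adjusted p = 0.497) and -0.46 ± 0.24 at the apex nondependent site (adjusted p = 0.939). The difference of the injury effect between base and apex was 0.67 ± 0.24 (adjusted p = 0.457), with 0.47, 0.74 and 0.81 in the 3 dogs.

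The sterol steps, from squalene to cholesterol, also had no probe set that passed. Of 17 probe sets, 9 were higher and 8 lower, with a median of 0.01. HSD17B7, a ketoreductase that also acts on sex steroids, had the smallest p of the group. Its log2 signal at the apex nondependent site was 6.59, 6.73 and 7.29 in the control lung of dogs 1, 2 and 3 and 6.0, 6.04 and 6.12 in the injured lung, without overlap. At the apex dependent site it was 6.06, 6.33 and 6.53 against 4.70, 6.40 and 5.80, and the injured array of dog 1 was the lowest of all 24. At the base the values were 6.66, 6.93 and 6.49 against 6.63, 6.20 and 6.56 in the dependent part and 6.91, 6.18 and 6.39 against 6.96, 6.38 and 5.94 in the nondependent part, where the groups overlapped. Over the 4 sites the difference was -0.45 ± 0.18 (adjusted p = 0.408), with -0.48, -0.29 and -0.57 in the 3 dogs. At the apex nondependent site it was -0.82 ± 0.37 (adjusted p = 0.904). The name of the probe set, which ends in x_at, marks probes that may also match other transcripts.

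SQLE, squalene epoxidase and a controlled step of the pathway, was at 0.11 ± 0.12 over the 4 sites (95% interval -0.13 to 0.35), the second probe set at -0.07 ± 0.16 and the third at 0.19 ± 0.18. EBP, the sterol isomerase, was at 0.13 ± 0.12 with 0.09, 0.08 and 0.22 in the 3 dogs, at 0.23 ± 0.15 on the second probe set and at about 0 on the third. The values of LSS, the cyclase that makes lanosterol, of DHCR7, the last reductase, and of NSDHL were 0.14 ± 0.23, 0.13 ± 0.25 and 0.01 ± 0.22. Other probe sets of these genes stood elsewhere, at -0.09 and -0.08 for LSS, -0.26 for DHCR7 and 0.32 for NSDHL. SC5D, the sterol desaturase, stood at -0.21 ± 0.16 with -0.61, -0.08 and 0.07 in the 3 dogs, and at 0.14 ± 0.19 on its second probe set. MSMO1, the methylsterol oxidase, stood at -0.16 ± 0.27 with 0.71, -0.40 and -0.78 in the 3 dogs. When the 3 arrays of dog 3 that stood apart were left out, MSMO1 was at 0.17, NSDHL at -0.33, SC5D at -0.35 and DHCR7 at 0.29, so MSMO1 and NSDHL had the opposite sign. None of these differences exceeded the spread between the dogs and the pieces by the test.

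Among the fatty acid enzymes, ACLY and ELOVL5 had all 3 of their probe sets on the higher side in the injured lung, and none passed the test. ACLY splits citrate into the cytosolic acetyl-CoA used by both pathways. Its 3 probe sets stood at 0.31 ± 0.17 (the brightest, adjusted p = 0.586), 0.48 ± 0.13 (adjusted p = 0.184) and 0.44 ± 0.22 (adjusted p = 0.525). The second had 0.09, 0.63 and 0.73 in dogs 1, 2 and 3 and the brightest had 0.43, 0.71 and -0.20, so dog 3 did not share the sign on the brightest. Without the 3 arrays of dog 3 that stood apart, the brightest was at 0.51 (adjusted p = 0.242) and the second at 0.34 (adjusted p = 0.526).

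Over the whole group of fatty acid synthesis and desaturation, 7 of 11 probe sets were higher and 4 lower, with a median of 0.16 and none past the test. FASN, the fatty acid synthase, was at 0.16 ± 0.13, ACACA, which makes malonyl-CoA, at -0.12 ± 0.22, and ELOVL5, an elongase, at 0.03 ± 0.25, with 0.22 ± 0.17 on the second probe set and 0.27 ± 0.21 on the third. ACACA had its largest difference of a single site at the apex nondependent one, 0.83 ± 0.45 (adjusted p = 0.939), with 1.19, 0.72 and 0.58 in the 3 dogs. Without the 3 arrays of dog 3 that stood apart, ACACA was at 1.193 there. FASN stood at 0.48 ± 0.26 at the apex dependent site (adjusted p = 0.776), with -0.13, 1.38 and 0.18. ACLY was at 0.61 ± 0.34 on its brightest probe set at the base nondependent site, with 1.06, 0.44 and 0.33. FADS2, a desaturase of polyunsaturated fatty acids, stood at -0.27 ± 0.23 with -0.70 in dog 1 and 0.02 in dog 3, and at -0.52 (adjusted p = 0.541) without the 3 arrays of dog 3 that stood apart.

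SCD makes monounsaturated fatty acids from saturated ones. Its brightest tested probe set read 7.40, 7.31 and 7.24 in the control lung and 8.10, 7.87 and 7.69 in the injured lung at the apex dependent site, for dogs 1, 2 and 3. In the nondependent part of the base it read 7.05, 7.53 and 7.94 in the control lung and 7.09, 7.08 and 7.08 in the injured lung. The injured lung was thus higher in each dog at the apex dependent site, without overlap, and lower in dogs 2 and 3 at the base nondependent one. At the apex nondependent site the values were 7.59, 7.57 and 5.77 against 7.27, 7.63 and 8.06, and at the base dependent site 8.95, 7.94 and 7.04 against 7.05, 6.97 and 7.35. Single arrays, the control apex nondependent one of dog 3 and the control base dependent one of dog 1, marked the lowest and the highest of all 24. At the base dependent site the difference was -0.86 ± 0.42 (limma adjusted p = 0.808), and -1.15 without the 3 arrays of dog 3 that stood apart. Over the 4 sites it was -0.01 ± 0.21, and -0.20 without the 3 arrays of dog 3 that stood apart, while the injury effect at the base minus that at the apex was -1.26 ± 0.42 (adjusted p = 0.435), with -1.12, -1.02 and -1.65 in the 3 dogs, and -1.18 (adjusted p = 0.38) without those arrays. The second probe set, called Present on 12 of 24 arrays, stood at -1.10 ± 0.43 over the 4 sites (adjusted p = 0.381) with -2.45 in dog 3, and at -0.23 without the 3 arrays of that dog that stood apart.

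**Figure D3:**
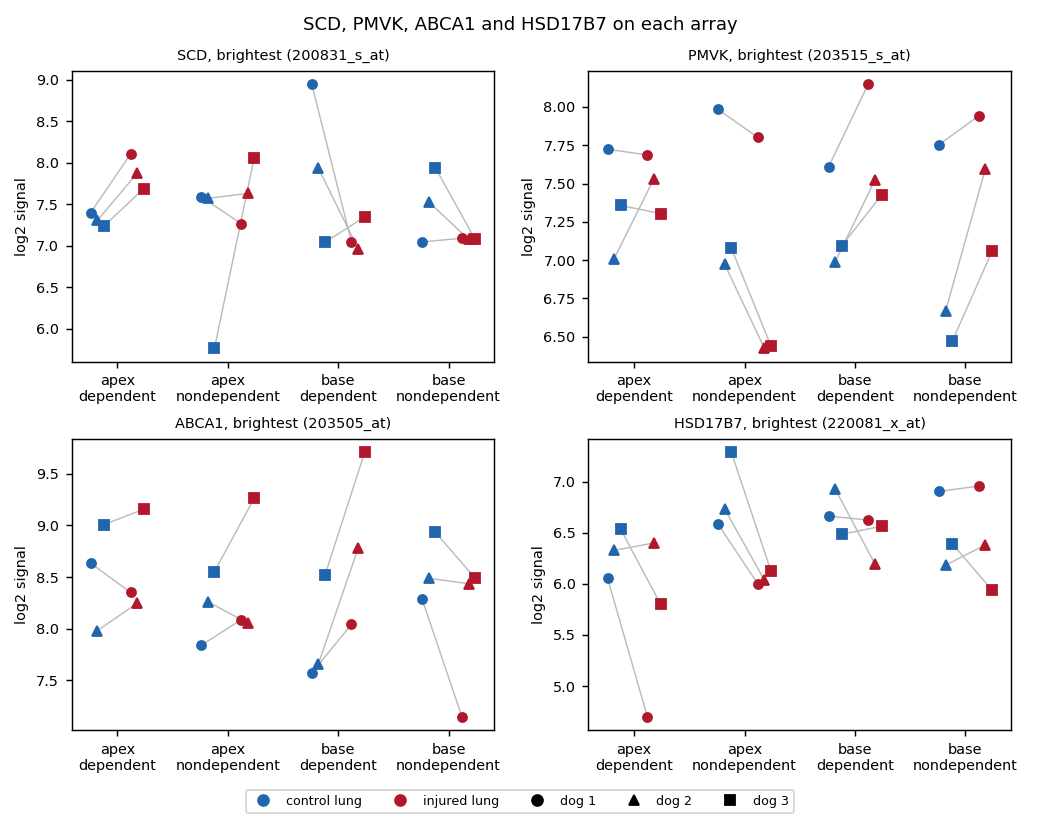
Log2 signal on each of the 24 arrays for SCD, PMVK, ABCA1 (brightest probe sets) and HSD17B7, by site, with the control lung in blue and the injured lung in red, marker shapes for the dogs and grey lines joining the lungs of a dog. PMVK is higher in the injured lung of each dog at both base sites, and ABCA1 at the base dependent site.

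The acyl-CoA synthetases, which activate fatty acids, and LPIN1, the phosphatidate phosphatase lipin 1, had 5 of 6 probe sets higher and 1 lower, with a median of 0.17 and none past the test. ACSL1 stood at 0.17 ± 0.18 on its brightest probe set, with 0.66 in dog 1 and -0.16 and about 0 in the others, and at 0.31 ± 0.17 on its second. At the base dependent site the brightest was at 0.72 ± 0.36 (limma adjusted p = 0.808), with 1.89, 0.10 and 0.16 in the 3 dogs, so dog 1 stood above the others there too. ACSL4 was at 0.04 ± 0.33. The probe sets of LPIN1 disagreed in sign: the brightest was at -0.14 ± 0.13, the second at 0.17 ± 0.15 and the third at 0.34 ± 0.16 (adjusted p = 0.478), with 0.46, 0.17 and 0.39 in the 3 dogs. The brightest and the third were called Present on all 24 arrays, and the second on 18. At the apex, the third probe set of LPIN1 stood at 0.67 ± 0.31 in the dependent part (adjusted p = 0.709) and at 0.82 ± 0.31 in the nondependent part (adjusted p = 0.82).

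ABCA1 exports cholesterol from the cell, and NPC1 releases it from the lysosome. Of their 5 probe sets, 3 were higher and 2 lower. The brightest probe set of ABCA1 was called Present on all arrays, and at the base dependent site it read 7.57, 7.66 and 8.52 in the control lung of dogs 1, 2 and 3 and 8.04, 8.78 and 9.71 in the injured lung. In the nondependent part of the base it read 8.28, 8.49 and 8.93 against 7.15, 8.44 and 8.49. On this probe set the injured lung was therefore higher in each dog in the dependent part of the base. In the nondependent part it was lower in each dog, with overlapping groups at both. The apex dependent values were 8.63, 7.98 and 9.01 in the control lung and 8.35, 8.24 and 9.16 in the injured lung, and the apex nondependent ones 7.84, 8.26 and 8.55 against 8.09, 8.06 and 9.27. The difference was 0.93 ± 0.28 at the base dependent site (limma adjusted p = 0.606), and -0.55 ± 0.28 at the base nondependent site (adjusted p = 0.622). Without the 3 arrays of dog 3 that stood apart, the base dependent value was 0.72 (adjusted p = 0.857). The other probe sets of ABCA1 did not share a sign at the base dependent site. The second was higher in the injured lung of each dog, at 0.29. The third, called Present on 14 arrays, was lower in each dog, at -0.60, and at -0.39 without the 3 arrays of dog 3 that stood apart. It read 5.952, 5.19 and 6.15 in the control lung of dogs 1, 2 and 3 and 5.725, 4.573 and 5.19 in the injured lung. Over the 4 sites ABCA1 was at 0.17 ± 0.14 on the brightest probe set, at 0.16 on the second and at -0.52 on the third.

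NPC1 was at -0.03 ± 0.15 on its brightest probe set. Over the 4 sites and without the 3 arrays of dog 3 that stood apart, NPC1 was at -0.21, ABCA1 at 0.06, LPIN1 at -0.06, ACACA at -0.19 and SQLE at 0.18 on their brightest probe sets. The second probe set of NPC1, called Present on 12 of 24 arrays, stood at 0.97 ± 0.35 over the 4 sites (adjusted p = 0.334). In the control lung it was 1.91 ± 0.49 higher at the base than at the apex (adjusted p = 0.945). For 18 genes with several tested probe sets, all shared a sign over the 4 sites in 8, and those of NPC1 did not.

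At single sites no member passed either. At the apex dependent site 0 of 57 probe sets were called, beside 0% of all tested, and 5 had an unadjusted p under 0.05, beside 6.94%. At the apex nondependent site 0 were called, beside 0% of all tested, and 4 had an unadjusted p under 0.05, beside 5.41%. At the base dependent site 0 were called, beside 0%, and 6 had an unadjusted p under 0.05, beside 6.21%. At the base nondependent site 0 were called, beside 0.404% of all tested, and 5 had an unadjusted p under 0.05, beside 8.41%. As shares of the 57 these unadjusted counts were 8.77, 7.02, 10.5 and 8.77%.

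**Figure D4:**
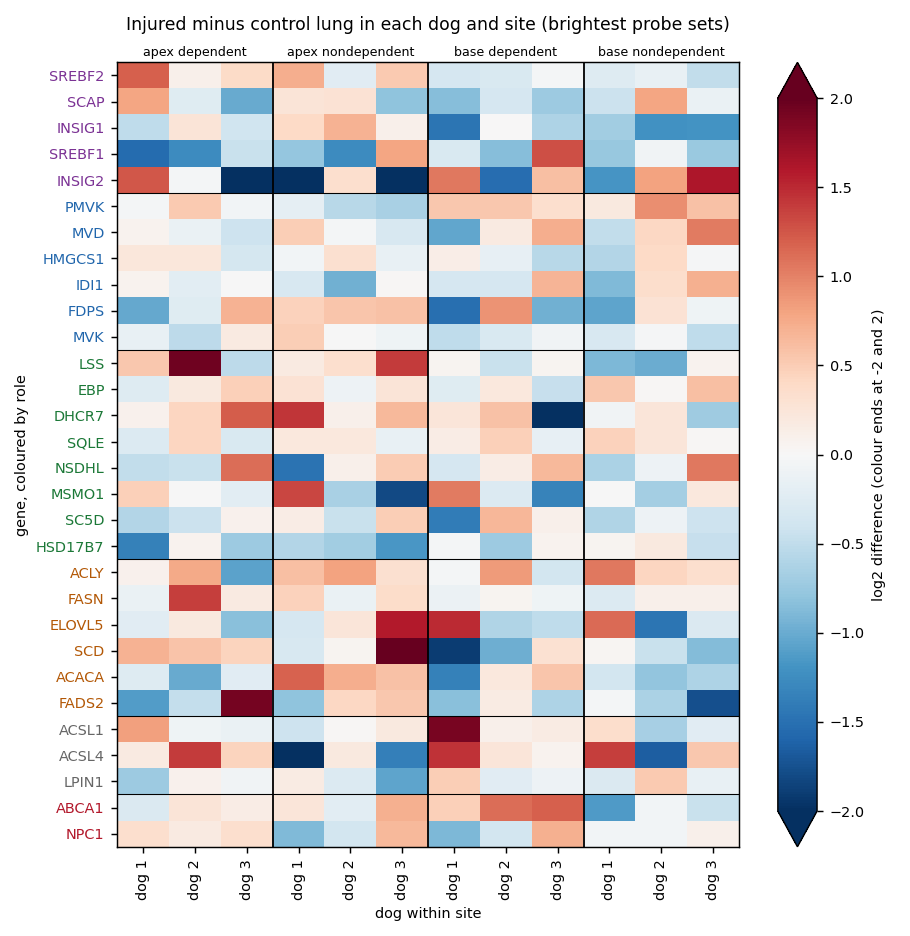
Injured minus control lung (log2) for the brightest probe set of each of the 30 genes, in each of the 3 dogs at each of the 4 sites, ordered by role. Red is higher and blue lower in the injured lung, and the colour scale ends at -2 and 2. The sign is the same in 3 dogs for 7, 8, 7 and 12 of the 30 genes at the 4 sites in the order shown. These are 23.3, 26.7, 23.3 and 40%, beside 28.1, 22.8, 27.5 and 31.6% of all tested probe sets. Among these genes are INSIG1 at the base nondependent site and ABCA1 and PMVK at the base dependent site.

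The comparison of the injury effect between base and apex held the most member probe sets with a small p. None of the 57 passed after adjustment, beside 0% of all tested. Without adjustment 10 of 57 (17.5%) had a p under 0.05, beside 8.26% of all tested. That count was 6 without dog 1 and with 1 value per dog, 8 without dog 2 or dog 3 and 13 without the 3 arrays of dog 3 that stood apart. With the difference between 3' and 5' signals of GAPDH and ACTB as covariates it was 7. The smallest limma adjusted p of the members was then 0.828, in place of 0.286. Of the 10, 9 were on the lower side, that is, with a lower injury effect at the base. They belonged to 8 genes and included 2 probe sets of INSIG1 and 1 each of SCD, SREBF2, LSS, DHCR7, NPC1, LPIN1 and MVK, with PMVK on the higher side. Over all 57 probe sets the median was -0.04, against -0.08 over all 20034.

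INSIG1 stood at -1.76 ± 0.46 on its second probe set (limma adjusted p = 0.286), with -2.29, -1.84 and -1.15 in the 3 dogs, and at -0.95 ± 0.39 on the brightest probe set (adjusted p = 0.537). Without the 3 arrays of dog 3 that stood apart these were -1.86 (adjusted p = 0.199) and -1.31 (adjusted p = 0.251). SREBF2 was at -0.71 ± 0.27 (adjusted p = 0.489), with -1.26, -0.15 and -0.72 in the 3 dogs. LSS was at -1.01 ± 0.46 with the same sign in each dog, and DHCR7 at -1.05 ± 0.50 with -2.62 in dog 3 and 0.15 in dog 2. DHCR7 was at -0.40 (adjusted p = 0.721) without the 3 arrays of dog 3 that stood apart. These are the brightest probe sets of SREBF2, LSS and DHCR7, and no other of theirs had an unadjusted p under 0.05. The second of SREBF2 ran from 5.83 to 7.25 in the control base and from 5.84 to 7.22 in the injured base. At the apex it ran from 4.92 to 7.16 and from 5.68 to 7.05. The second of LSS also overlapped between the lungs at both levels. The sign was shared by 3 dogs for 23 of 57 probe sets (40.4%), against 25.4% of all tested.

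The same contrast can be read within each lung. In the injured lung, base minus apex, 0 of 57 members were called, beside 0.0349% of all tested, and 7 (12.3%) had an unadjusted p under 0.05, beside 9.03%, a count that was 3 without dog 1. There 19 of 57 probe sets (33.3%) were higher at the base and 38 lower, beside 41% of all tested that were higher. The median was -0.07 for the members and -0.07 over all tested probe sets. The second probe set of INSIG1 stood at -1.25 ± 0.32 (adjusted p = 0.157) and the brightest at -0.75 ± 0.28 (adjusted p = 0.398), with -1.55, -0.80 and 0.11 in the 3 dogs. SCD was at -0.67 ± 0.29, with -0.62, -0.73 and -0.66 in the 3 dogs, PMVK at 0.42 ± 0.17 with 0.30, 0.58 and 0.37, and HSD17B7 at 0.60 ± 0.26 with 1.44, 0.07 and 0.29. INSIG2 had the highest value of the 30 genes there, 1.16 ± 0.58, on a dim signal. INSIG2 was at 0.72 (adjusted p = 0.82), DHCR7 at -0.02 in place of -0.67, and the brightest probe set of INSIG1 at -1.11 (adjusted p = 0.135) without the 3 arrays of dog 3 that stood apart. In the control lung, base minus apex, 0 of 57 were called, beside 0% of all tested, and 6 had an unadjusted p under 0.05, beside 5.16%. SCD was at 0.59 ± 0.30 there, INSIG1 at 0.20 on its brightest probe set, LSS at 0.73 ± 0.33 with 0.48, 1.04 and 0.67 in the 3 dogs, and FADS2 at 0.69 ± 0.32 with 0.13, 0.54 and 1.40. SREBF2 was at 0.40 ± 0.19 with 0.94, -0.22 and 0.48, and LPIN1 at -0.40 ± 0.19 with -0.45, -0.37 and -0.37. The third probe set of LPIN1 went the other way there, at 0.63. These comparisons use the same arrays as the injury effects and are not further evidence for them.

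**Figure D5:**
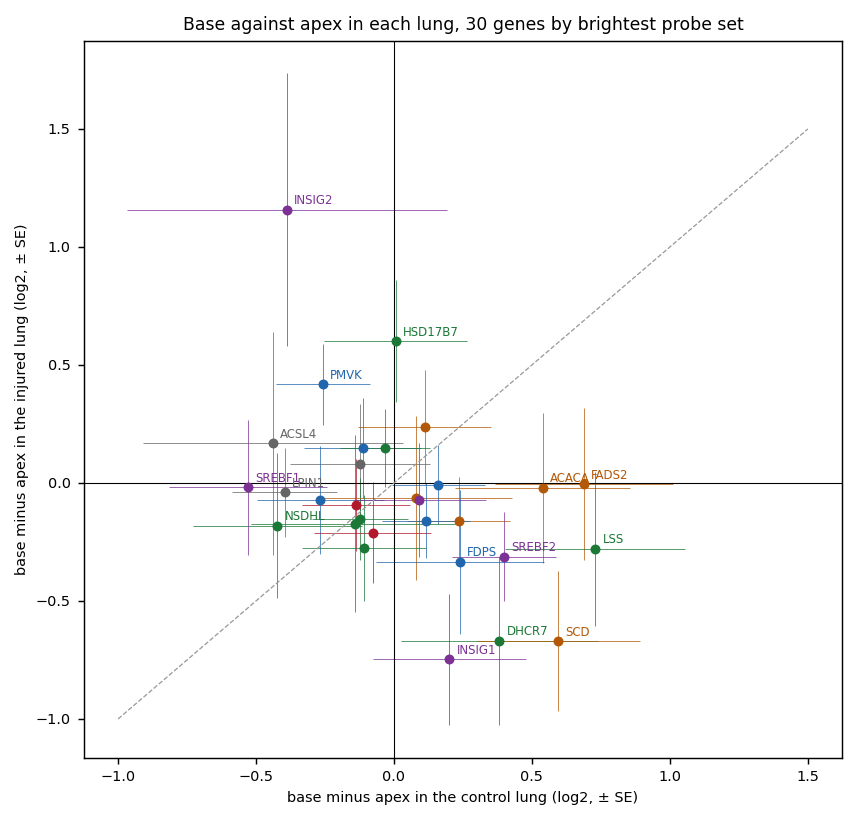
Base minus apex (log2) in the control lung, horizontal axis, and in the injured lung, vertical axis, for the brightest probe set of each of the 30 genes, coloured by role, with SE bars and a dashed line of equal values. Genes further than 0.3 from 0 in either lung are named. INSIG1, SCD and DHCR7 lie below 0 in the injured lung and above 0 in the control lung, DHCR7 at -0.67 and, without the 3 arrays of dog 3 that stood apart, at -0.02 in the injured lung.

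Position under gravity gave no called member. For the difference of the injury effect between dependent and nondependent parts, 0 of 57 were called, beside 0% of all tested, and 1 had an unadjusted p under 0.05, beside 5.43%. That was the brightest probe set of ABCA1, at 0.63 ± 0.28 (adjusted p = 0.851) with 0.54, 0.82 and 0.54 in the 3 dogs. ACSL4 was at 1.19 ± 0.67 with 1.36, 1.55 and 0.66, ACSL1 at 0.58 ± 0.36 with 1.39, 0.33 and 0.03, and ACLY at -0.56 ± 0.34 with -0.81, 0.18 and -1.05. Without the 3 arrays of dog 3 that stood apart, ACLY was at -0.12, ACSL4 at 1.53 and ACSL1 at 0.73. In the control lung, dependent minus nondependent, 0 were called, beside 0%, and 2 had an unadjusted p under 0.05, beside 4.79%. The brightest probe set of ACSL1 was at -0.45 ± 0.25 there with -0.75, -0.58 and -0.04 in the 3 dogs, SCD at 0.41 ± 0.30 with 0.86, 0.07 and 0.29, LSS at -0.43 ± 0.33 with -1.13, -0.98 and 0.82, and MSMO1 at -0.49 ± 0.38 with -0.12, -0.49 and -0.86. In the injured lung 0 were called, beside 0%, and 4 had an unadjusted p under 0.05, beside 5.27%, a count that was 0 without dog 3 and 1 without the 3 arrays of that dog that stood apart. There ABCA1 was at 0.47 ± 0.19 with 0.58, 0.27 and 0.56 in the 3 dogs, PMVK at 0.39 ± 0.17 with 0.05, 0.52 and 0.62, and ACSL4 at 0.65 ± 0.47 with 0.93, 1.07 and -0.05 (0.99 without the 3 arrays). ACLY was at -0.70 ± 0.24 with -0.67, 0.04 and -1.45, and at -0.26 (limma adjusted p = 0.998) without those arrays.

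Lists of other lipid genes, none of them members, were counted by their brightest probe sets over the 4 sites. Of 13 other synthesis genes, 8 were higher, 5 lower and none called, 6 (46.2%) had an unadjusted p under 0.05 beside 9.7% of all tested probe sets, and 10 (76.9%) had the same sign in 3 dogs beside 29.7%. Their smallest p values belonged to MBTPS1, the protease that cuts SREBP in the Golgi, at -0.49 ± 0.16 (limma adjusted p = 0.276), ACAT2, which makes acetoacetyl-CoA, at 0.59 ± 0.19 (adjusted p = 0.288), and TECR, an enoyl-CoA reductase of fatty acid elongation, at -1.11 ± 0.43. Of 9 genes of cholesterol handling and the LXR receptors, 6 were higher, 3 lower and none called, 2 (22.2%) had an unadjusted p under 0.05 and 3 (33.3%) the same sign in 3 dogs. MYLIP, a ubiquitin ligase that removes lipoprotein receptors, was at -0.81 ± 0.22 (adjusted p = 0.15), and NR1H3, the receptor LXR alpha, at 0.36 ± 0.16. Of 12 genes of fatty acid oxidation, 8 were higher, 4 lower and none called, with a median of 0.13, 0 had an unadjusted p under 0.05 and 4 (33.3%) had the same sign in 3 dogs.

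Alveolar type 2 cells make surfactant lipids. Over the 4 sites, of the 10 tested of their 12 markers 8 were on the lower and 2 on the higher side in the injured lung. An unadjusted p under 0.05 was found for 3 (30%), and 0 were called. Of all tested probe sets 54.7% were higher, 9.7% had an unadjusted p under 0.05 and 0.21% were called. The log2 of the summed signal of the 10 alveolar type 2 markers ran from 11.95 to 12.64 on the 12 control arrays and from 11.34 to 12.34 on the 12 injured arrays. Its injured minus control difference was -0.42, -0.28 and -0.45 in dogs 1, 2 and 3. Of the 8 tested endothelial markers 7 were lower and 1 higher, 2 (25%) had an unadjusted p under 0.05 and 1 was called (limma adjusted p = 0.0434). The ranges of their sum were 10.64 to 11.65 and 9.87 to 11.19, with -0.39, -0.48 and -0.42. Of the 7 tested of 8 alveolar type 1 markers 5 were lower and 2 higher, 5 (71.4%) had an unadjusted p under 0.05 and 0 were called. Their sum gave -0.18, -0.34 and -0.93, and that of the macrophage and monocyte markers -0.09, 0.06 and -0.08. The red cell and platelet sum gave -0.19, -0.23 and -1.04 and that of smooth muscle and fibroblasts -0.44, 0.02 and -0.60, so these and the alveolar type 1 sum were lowest in dog 3. The neutrophil sum was at 0.11, 0.01 and -0.26 and the airway epithelial one at 0.02, 0.04 and 0.04. For the injury effect at the base minus that at the apex, the alveolar type 2 sum gave -0.69, -0.19 and 0.68, the alveolar type 1 sum -1.16, -0.06 and 0.61, and the macrophage and monocyte sum -0.12, -0.21 and -0.10. The part of these cell types in the values of INSIG1, SREBF1 and HSD17B7 was not tested.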

How the data were processed

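Each of the 24 arrays had 1 deposited file that gives a signal intensity, a Present or Absent call and its p-value for 22283 probe sets. The intensity had been scaled by the authors to about the same trimmed mean on each array, as its values show, with software not given in the sources used here. Intensities were then brought to exactly 1 common 2% trimmed mean and log2-transformed, with a floor of 0.1 that 3 signals of 0 took. After 68 control probe sets and 11 without any call were left out, the 20034 probe sets called Present on at least 6 of 24 arrays were tested. Gene names came from the platform annotation, and all 34 member symbols also occur in the dog RefSeq gene table of the assembly UU_Cfam_GSD_1.0.

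Differences were fitted with limma 3.58.1 in R 4.3.3, in 1 model of 8 groups with the dog as a block (lmFit, then eBayes with trend), for 11 contrasts, and p-values were adjusted by Benjamini-Hochberg over all tested probe sets with a threshold of 0.05. The titles say which dog each piece came from, and this paired the samples. Deviations from group means correlated with a median of 0.236 within a dog and -0.136 between dogs. The deviations of the dogs in a group sum to 0, which by itself pushes the value between dogs below 0. Lavage was given to whole lungs, yet the pieces count as separate units in this model, except in the alternative with 1 value per dog. The number of arrays limits the precision, with a median SE of 0.182 (log2) over all probe sets in the mean of 4 sites and 0.363 at 1 site. No 2 of the 24 arrays were identical, and the files record no batch. The method was tested on simulated data.

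Members and lists were chosen with earlier results of these data known. A gene is given by its brightest tested probe set, with others beside it over the mean of 4 sites. Values by dog are given for members past the threshold in any contrast, for the 8 genes with the smallest p over the mean of 4 sites and for the 4 with the smallest p in each other contrast. ACLY, NPC1 and other dimmer probe sets are shown as further probe sets of named genes. Alternatives were quantile normalization, log2(signal + 16), a Present minimum of 12 arrays, no filter on calls, no replicate block, 1 value per dog, each dog left out, the 3 arrays of dog 3 that stood apart left out, the difference between 3' and 5' control signals (GAPDH, ACTB) as covariates, and the mean of all probe sets of a gene.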

Additional observations from a re-analysis of the deposited data

How the results depend on the processing

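The number of member probe sets called was 0 in all 11 comparisons and stayed 0 under the alternatives, including each dog left out (0 to 0), with 1 exception. Over the mean of 4 sites it was 1, SREBF1, without the 3 arrays of dog 3 that stood apart. The cause was not tested. With no replicate block, in place of the fit paired by dog, 0 members were called, and 6 of all probe sets in place of 42. Of 928 values of 80 results of named members under the alternatives, 926 kept the sign, and the other 2 were MVK over the 4 sites and SCD in the control lung, dependent minus nondependent (-0.15 in place of 0.41). SREBF1 over the 4 sites ranged from -0.87 to -0.31, the second probe set of INSIG1 from -0.99 to -0.68 and the second of SCD from -1.52 to -0.23. Counts over all probe sets moved more. Over the mean of 4 sites 42 became 6 with 1 value per dog, and 3, 0 and 26 without dogs 1, 2 and 3. At the base nondependent site 81 became 39 with quantile normalization, 0 with no replicate block, 32 with 1 value per dog, 9 with the 3' minus 5' covariates, 4, 0 and 134 without dogs 1, 2 and 3, and 151 without the 3 arrays. In the injured lung, base minus apex, 7 became 14 with log2(signal + 16), 0 with quantile normalization, with no replicate block, with 1 value per dog, with the covariates and without dog 1 or 2, 102 without dog 3 and 59 without the 3 arrays. For the injury effect between base and apex 0 became 32 without dog 3 and 24 without the 3 arrays, and at the base dependent site 0 became 3 without dog 3 and 1 with no filter on calls. Counts of members at an unadjusted p under 0.05 moved by over 1.5 times in several comparisons. For the injury effect between base and apex 10 became 6 without dog 1 and with 1 value per dog, and ranged from 6 to 13 over the alternatives counted by probe set. In the injured lung, base minus apex, 7 became 3 without dog 1 and with the covariates, and, dependent minus nondependent, 4 became 0 without dog 3 and 1 without the 3 arrays and with no replicate block. Over the mean of 4 sites 7 ranged from 5 to 9. Dim signal, with Present calls on about as many arrays as not, limits what can be said of the second probe set of INSIG1 and of INSIG2. Few Present calls also limit the brightest probe sets of SREBF1 and ACACA (13 of 24 arrays), MSMO1 (12), and ACSL4 and MVD (11).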
